A study of Mus musculus with 24 samples.

Results

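The genes Cyp2j5, Cyp2j6, Cyp2j9, Cyp2j11, Cyp2j13, Cyp2e1, Ephx1 and Ephx2 were followed through mouse kidneys with and without congenital hydronephrosis. They encode the CYP2J cytochromes P450, the related P450 CYP2E1, and the microsomal (Ephx1) and soluble (Ephx2) epoxide hydrolases. The 8 genes were taken by name as enzymes that make or break down fatty acid epoxides. They are 8 of the 27959 genes that could be tested and were read by 13 of the 55681 probes of the array. Each gene was represented by its brightest probe, and the other probes of Cyp2j6, Cyp2j13, Cyp2e1 and Ephx1 are given beside it.

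Cytochromes P450 of the CYP2J and CYP2C families add oxygen across a double bond of arachidonic acid, which gives the epoxyeicosatrienoic acids. These lipids act close to where they are made, and in the kidney they are known for effects on vessel tone and on sodium transport along the tubule. Soluble epoxide hydrolase turns them into less active diols, so the level of the epoxides depends on enzymes of both kinds. CYP2E1 oxidizes ethanol, acetone and fatty acids, and CYP2J5 and CYP2E1 are among the P450s known from the proximal tubule of the mouse.

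The kidneys came from male mice, labelled as young adult and taken soon after weaning at matched ages by the study's methods. The 6 control kidneys came from mgb+/+ animals. The other 18 kidneys came from homozygous megabladder mutants (mgb-/-), in which the bladder muscle fails to develop and urine backs up into the kidney. They were graded as mild (n = 7), moderate (n = 5) or severe (n = 6) hydronephrosis by ultrasound. Total RNA of each whole kidney was hybridized to a 1-colour Agilent array. Nothing in the labels tells whether 1 or both kidneys of an animal entered, and the p-values measure the spread between kidneys. In whole-kidney RNA, fewer cells of a type and less RNA per cell cannot be told apart.

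All levels below are log2 signals of a probe after the 75th percentile of its array was subtracted, so that 0 is the level of that percentile and 1 unit is a 2-fold difference. They compare kidneys for 1 gene and not the genes with each other. The share of probes well above background ran from 55.6% to 70.7% over the 24 arrays, and no spot was saturated. All 13 probes of the 8 genes were well above background on all 24 arrays. The arrays lay on 3 slides, each with 2 control and 6 mgb-/- kidneys. Severe replicate 4 had the lowest share of probes above background. Its array also had 660 spots flagged as outliers, against 102 to 261 on the other arrays. Severe replicate 5 had the lowest summed level of 24 proximal tubule markers, 724 against 2470 to 2981 in controls on the linear scale. The adrenal markers Cyp11a1 and Cyp11b1 were both well above background in 5 mild and 2 moderate kidneys and in no control or severe kidney. The summed adrenal markers were 248 in mild replicate 4 and 236 in moderate replicate 1, against at most 0.455 in controls. In the other kidneys with both markers above background they were far lower, from 1.24 to 5.36. The comparisons of the 8 genes with controls, their correlations and the gene lists are also given without the kidneys with adrenal markers. The search for the genes most like each of the 8 was not repeated without those kidneys or without severe replicates 4 and 5.

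Of the Cyp2j genes, Cyp2j13, Cyp2j11, Cyp2j6, Cyp2j9 and Cyp2j5 lie in 1 cluster on chromosome 4 in this order, with Cyp2j8 between Cyp2j11 and Cyp2j6. The 250 bases before the transcription start are shown for 4 of them. Between all mgb-/- kidneys and controls, Cyp2j13 and Cyp2j5 passed and Cyp2j11 and Cyp2j6 did not. The sequences were taken from RefSeq (GRCm38.p6), which held a start for 7 of the 8 genes. Ephx2 was not among them. The windows lie on the minus strand, at chr4:96077541-96077790 for Cyp2j13, chr4:96348681-96348930 for Cyp2j11, chr4:96553652-96553901 for Cyp2j6 and chr4:96664120-96664369 for Cyp2j5, and each is printed 5′ to 3′ up to the base before the start. For Cyp2j13 the table held 2 starts 7 bases apart, and the window before the more downstream one is printed.
Cyp2j13 upstream: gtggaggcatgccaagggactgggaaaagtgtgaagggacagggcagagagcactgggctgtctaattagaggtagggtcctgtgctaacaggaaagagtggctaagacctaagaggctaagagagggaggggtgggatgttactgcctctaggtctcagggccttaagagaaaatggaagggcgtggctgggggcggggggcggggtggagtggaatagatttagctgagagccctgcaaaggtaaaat
Cyp2j11 upstream: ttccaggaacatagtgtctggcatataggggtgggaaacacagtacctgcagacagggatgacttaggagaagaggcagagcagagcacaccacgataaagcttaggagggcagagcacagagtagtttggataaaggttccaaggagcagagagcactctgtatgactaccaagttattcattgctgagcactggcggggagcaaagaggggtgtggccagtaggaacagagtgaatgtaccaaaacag
Cyp2j6 upstream: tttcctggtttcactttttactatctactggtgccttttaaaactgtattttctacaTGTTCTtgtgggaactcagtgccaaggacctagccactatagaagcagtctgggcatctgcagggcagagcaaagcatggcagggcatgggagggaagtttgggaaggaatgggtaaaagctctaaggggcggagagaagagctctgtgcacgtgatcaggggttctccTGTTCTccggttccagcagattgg
Cyp2j5 upstream: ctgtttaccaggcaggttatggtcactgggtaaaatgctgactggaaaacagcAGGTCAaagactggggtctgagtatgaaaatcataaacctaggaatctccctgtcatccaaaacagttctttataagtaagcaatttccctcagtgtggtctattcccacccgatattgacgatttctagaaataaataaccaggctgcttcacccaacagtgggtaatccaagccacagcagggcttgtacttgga
Capitals mark 2 short motifs searched on both strands. AGAACA, a steroid receptor half-site, was found in 16.08% of the 32851 promoter windows of this length, and AGGTCA, a nuclear receptor half-site, in 14.02%. The Cyp2j6 window held AGAACA at 2 places, both on the opposite strand (TGTTCT), and the Cyp2j5 window held AGGTCA once. The windows of Cyp2j13, Cyp2j11, Cyp2j9 and Cyp2e1 held neither motif, and that of Ephx1 held AGAACA once. A match of 6 letters describes the sequence only.

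Between all 18 mgb-/- kidneys and the 6 controls, 3 of the 8 genes were lower and none was higher at an adjusted p under 0.05 (limma, adjusted over all genes tested). The 3 were Cyp2j13, Ephx2 and Cyp2j5. Over all genes, 13.3% passed this test, 8% as lower and 5.34% as higher. The median log2 change was -0.65 over the 8 genes and 0.01 over all genes tested. Every mgb-/- kidney lay below every control for none of the 8 genes, as it did for 0.49% of all genes. For a single grade, which holds fewer kidneys, this share was not computed. Statements below that a whole grade lay below every control are therefore not set against all genes.

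**Figure D1:**
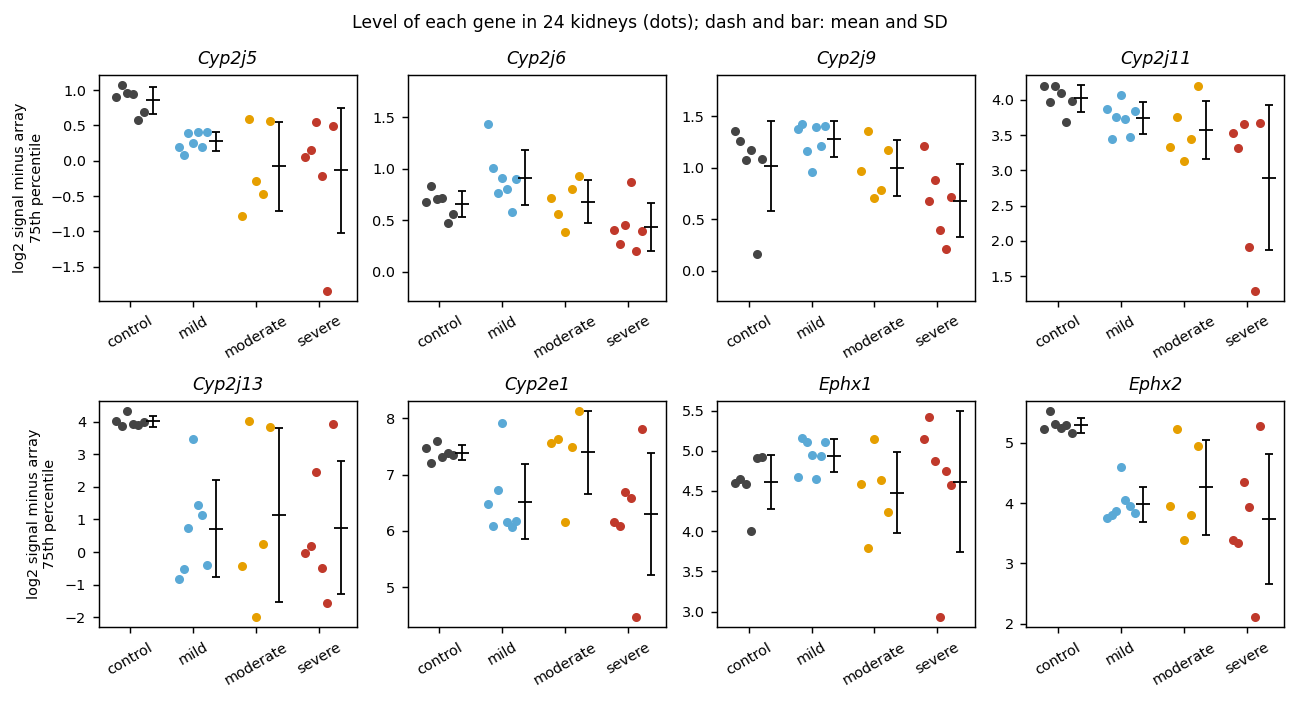
Level of each of the 8 genes in each kidney (dots, in order of replicate number), as log2 signal minus the array's 75th percentile, for control (n = 6), mild (n = 7), moderate (n = 5) and severe (n = 6) kidneys, with the mean and SD beside them. Control kidneys are tightly grouped for Cyp2j13, Cyp2e1 and Ephx2, and the mgb-/- kidneys of every grade are spread wide for Cyp2j13, from -2.0 to 4.03.

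Cyp2j13, a P450 of the CYP2J family, had the largest change among the 8 genes when each was read by its brightest probe. The control level was 3.88, 3.96 and 4.32 (lowest, median and highest of 6 kidneys). Mild kidneys had a lowest, median and highest level of -0.82, 0.73 and 3.46. Moderate replicates 1 to 5 stood at -0.41, 4.03, -2.0, 0.25 and 3.83, and severe kidneys at -1.57, 0.08 and 3.93 (lowest, median and highest). All 7 mild kidneys lay below every control, as did 4 of 5 moderate and 5 of 6 severe kidneys, while moderate replicate 2 and severe replicate 6 fell within the control range. The mean was 3.16 log2 units lower in mgb-/- kidneys (SE 0.77, 95% interval -4.75 to -1.57, adjusted p = 0.0108, limma), an 8.94-fold difference, and 17 of 18 kidneys lay below the control mean.

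The mgb-/- kidneys were spread far wider for Cyp2j13 than the controls. The SD was 0.17 in controls and 1.5, 2.68 and 2.04 in mild, moderate and severe kidneys. Over the 18 mgb-/- kidneys the values covered 6.02 log2 units, and the widest gap between neighbouring values was 1.01, from 1.45 to 2.46, with 5 kidneys above it and 13 below. The 4 highest were mild replicate 4, moderate replicates 2 and 5 and severe replicate 6, which lay on all 3 slides. The other 2 probes of Cyp2j13 were lower as well, by -2.92 (SE 0.69, adjusted p = 0.0102) and -1.13 (SE 0.28, adjusted p = 0.0128), so that the direction was the same in all 3 and the size was not. The smallest of these changes was below that of Ephx2. Whether the probes also read transcripts of the closely related cluster genes was not tested.

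Cyp2j5, a major CYP2J enzyme of the mouse kidney, fell less but in nearly every kidney. Controls had 0.57, 0.92 and 1.08 (lowest, median and highest), mild kidneys 0.08, 0.25 and 0.41, and severe kidneys -1.84, 0.10 and 0.56. Moderate replicates 1 to 5 had -0.78, 0.60, -0.29, -0.47 and 0.57. All 7 mild and all 6 severe kidneys lay below every control, with moderate replicate 2 alone just inside the control range. The difference was -0.82 (SE 0.25, 95% interval -1.33 to -0.31, adjusted p = 0.0318, limma), with 18 of 18 kidneys below the control mean. Severe replicate 5 was the lowest kidney, and without it the difference was -0.70 with an adjusted p of 0.00830. Without any 1 of control replicates 1 to 4 the difference ran from -0.81 to -0.77 and no longer passed, with an adjusted p from 0.0624 to 0.0753.

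Cyp2j11 had levels of 3.69, 4.04 and 4.20 in controls, 3.44, 3.76 and 4.07 in mild and 1.29, 3.42 and 3.67 in severe kidneys (lowest, median and highest). Moderate replicates 1 to 5 had 3.33, 3.76, 3.13, 3.44 and 4.19. All 6 severe kidneys lay below the controls, severe replicates 4 and 5 far below at 1.91 and 1.29, while 5 of 7 mild and 2 of 5 moderate kidneys fell within the control range. Over all mgb-/- kidneys the difference of -0.61 (95% interval -1.21 to -0.01) did not pass (adjusted p = 0.166).

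Cyp2j6 and Cyp2j9, the neighbours between Cyp2j8 and Cyp2j5, showed no difference that passed. Cyp2j6 had a mean of 0.66 in controls and 0.69 in mgb-/- kidneys (difference 0.03, 95% interval -0.24 to 0.30, adjusted p = 0.910). Its mgb-/- kidneys were split evenly, with 6 below, 6 within and 6 above the control range. Its dimmer probe differed by -0.16 (adjusted p = 0.512). Cyp2j9 had means of 1.02 and 1.00 (difference -0.02, 95% interval -0.38 to 0.35, adjusted p = 0.965). Of the 18 mgb-/- kidneys, 13 lay within the control range of Cyp2j9, which control replicate 5 widened to 0.16 at its low end.

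**Figure D2:**
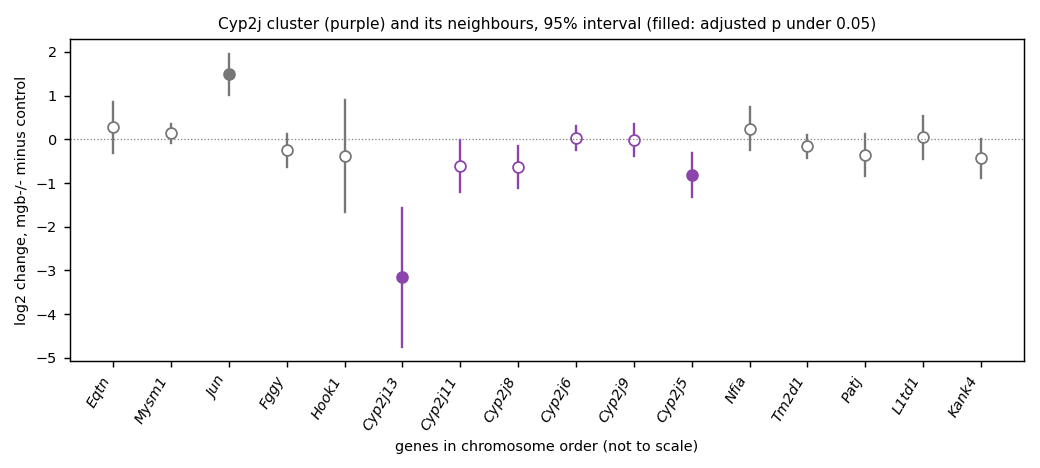
Log2 change between mgb-/- and control kidneys with its 95% interval for the Cyp2j genes (purple) and the nearest tested genes on either side (grey), in chromosome order and not to scale, with filled dots at adjusted p under 0.05. Cyp2j13 (-3.16) and Cyp2j5 (-0.82) were lower, and Cyp2j6 (0.03) and Cyp2j9 (-0.02) between them lay near 0.

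Of the 6 cluster genes tested, Cyp2j13 and Cyp2j5 passed. The cluster genes Cyp2j7, Cyp2j12, Cyp2j15-ps and Cyp2j16 were not analysed here. The intervals of Cyp2j11 and Cyp2j8 overlapped that of Cyp2j5, and differences between genes were not tested. Cyp2j8, which is not among the 8 genes, differed by -0.63 (95% interval -1.11 to -0.15, adjusted p = 0.0738), with 1 severe kidney left out as an outlier spot. None of the 5 nearest tested genes beyond Cyp2j5 passed, from Nfia to Kank4. Of the 5 nearest on the side of Cyp2j13, Jun, a subunit of the AP-1 transcription factor, was higher by 1.49 (SE 0.22, adjusted p = 4.15e-04), and Hook1, Fggy, Mysm1 and Eqtn did not pass.

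Cyp2e1 did not pass over all mgb-/- kidneys. Controls lay close together at 7.21, 7.37 and 7.59 (lowest, median and highest), mild kidneys at 6.06, 6.17 and 7.92 and severe kidneys at 4.47, 6.37 and 7.82. Moderate replicates 1 to 5 had 7.57, 7.63, 6.16, 7.49 and 8.13. Of the 18 mgb-/- kidneys, 12 lay below, 2 within and 4 above the control range, and the 4 above were mild replicate 4, moderate replicates 2 and 5 and severe replicate 6. The difference was -0.70 (SE 0.37, 95% interval -1.46 to 0.06, adjusted p = 0.214, limma), and the other probe gave -0.84 (adjusted p = 0.211). The 4 kidneys above the control range for Cyp2e1 were the 4 with the highest Cyp2j13.

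The epoxide hydrolases differed from each other. Ephx2, the soluble enzyme that breaks down epoxyeicosatrienoic acids, had 5.16, 5.27 and 5.52 in controls (lowest, median and highest). Mild kidneys had 3.74, 3.86 and 4.60 and severe kidneys 2.11, 3.66 and 5.28, while moderate replicates 1 to 5 had 3.95, 5.22, 3.38, 3.79 and 4.94. All 7 mild kidneys, 4 of 5 moderate and 5 of 6 severe kidneys lay below every control, and moderate replicate 2 and severe replicate 6 lay within the control range. Ephx2 fell by 1.32 on the log2 scale (SE 0.30, 95% interval -1.94 to -0.70, adjusted p = 0.00771, limma), a 2.49-fold difference, with 18 of 18 kidneys below the control mean.

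Ephx1, the microsomal hydrolase that acts mainly on epoxides of foreign compounds, did not differ beyond its spread. Its mean was 4.61 in controls and 4.70 in mgb-/- kidneys (difference 0.09, 95% interval -0.42 to 0.60, adjusted p = 0.848), and the second probe gave 0.17 (adjusted p = 0.526). Of the 18 kidneys, 8 lay above the control range, 8 within it and 2 below. The 2 below were severe replicate 4 at 2.93 and moderate replicate 2 at 3.79.

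**Figure D3:**
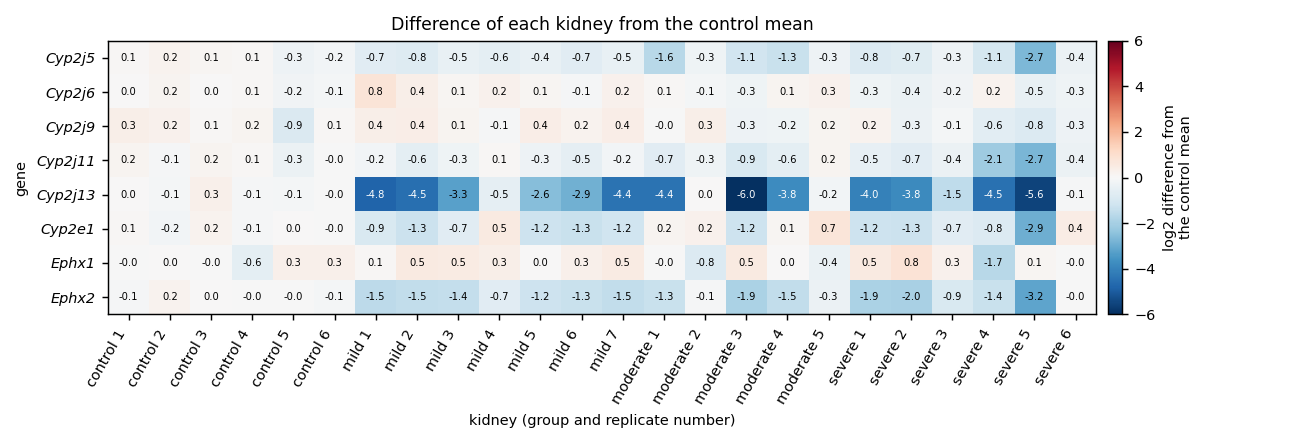
Difference of each kidney (columns, by group and replicate number) from the control mean for each gene (rows), in log2 units, blue for lower and red for higher. Cyp2j13 and Ephx2 are low in nearly the same kidneys, and moderate replicate 2 and severe replicate 6 stay near 0 for both.

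The result was similar on each slide for the 3 genes that passed. Within slides 1, 2 and 3 the mgb-/- mean differed from that of the 2 controls by -3.59, -2.27 and -3.62 for Cyp2j13, by -1.36, -1.32 and -1.27 for Ephx2 and by -0.97, -0.76 and -0.72 for Cyp2j5. With the slide as a block the adjusted p was 0.0136 for Cyp2j13, 0.0110 for Ephx2 and 0.0410 for Cyp2j5. Cyp2j9 and Ephx1 had differences of both signs over the slides, as did Cyp2j6. Each slide held only 2 controls, so no slide was tested alone.

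The proximal tubule markers give the measure of the cells in which several of these genes are known to be active. Of 24 such markers, 3 were lower (Slc22a7, Ggt1 and Slc22a12) and none higher, with a median change of -0.14. The summed marker level was 2084 to 2742 in mild, 1928 to 3416 in moderate and 724 to 2807 in severe kidneys. When each array was scaled by the mean of these markers in place of the 75th percentile, the change was -2.85 for Cyp2j13 (adjusted p = 0.0193), -1.01 for Ephx2 (adjusted p = 0.00676) and -0.50 for Cyp2j5 (adjusted p = 0.0807). Cyp2j13 and Ephx2 were thus lower relative to the markers too, and Cyp2j5 no longer passed.

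Kidneys with adrenal markers entered these values. Without the 7 of them, 11 mgb-/- kidneys were left and none of the 8 genes passed, although the changes were of the same size: -2.87 for Cyp2j13 (adjusted p = 0.0626), -1.29 for Ephx2 (adjusted p = 0.0652) and -0.81 for Cyp2j5 (adjusted p = 0.117). Over all genes this smaller comparison called 331 as higher and 251 as lower, against 1494 and 2238 with all kidneys. Without severe replicates 4 and 5 the 3 genes passed and Cyp2j11 did as well, with a change of -0.38 (adjusted p = 0.0432). More of all genes passed in that fit too, 1605 as higher and 2865 as lower.

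Against controls, the grades gave different counts of the 8 genes. Mild kidneys had 2 genes lower and none higher, Cyp2j13 (-3.29, SE 0.94, adjusted p = 0.0404) and Ephx2 (-1.32, SE 0.36, adjusted p = 0.0313), where 6.02% of all genes passed, 3.01% as lower. Moderate kidneys had none, where 1.2% of all genes passed, though the changes were -2.87 for Cyp2j13 (95% interval -5.0 to -0.73, adjusted p = 0.144), -1.03 for Ephx2 (95% interval -1.84 to -0.23, adjusted p = 0.160) and -0.93 for Cyp2j5 (95% interval -1.59 to -0.28, adjusted p = 0.122). At an unadjusted p under 0.05, where 18.4% of all genes lay, these 3 of the 8 genes were below control in moderate kidneys. Severe kidneys had 4 genes lower, where 16.1% of all genes passed, 9.56% as lower, namely Ephx2 (-1.56, SE 0.37, adjusted p = 0.0101), Cyp2j11 (-1.12, SE 0.32, adjusted p = 0.0227), Cyp2j13 (-3.25, SE 0.98, adjusted p = 0.0291) and Cyp2j5 (-0.99, SE 0.30, adjusted p = 0.0297). Cyp2e1 was -1.09 in severe (adjusted p = 0.0711), -0.87 in mild (adjusted p = 0.200) and 0.01 in moderate kidneys (95% interval -0.88 to 0.90, adjusted p = 0.995).

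These counts leaned on single kidneys. The mild calls of Cyp2j13 and Ephx2 were both lost when any 1 control kidney, or any 1 mild kidney other than replicate 4, was left out. Leaving out control replicate 3 left 2 genes called in severe kidneys, Cyp2j11 and Ephx2. Cyp2j5 did not pass in severe kidneys without any 1 of control replicates 1 to 4 (adjusted p from 0.0517 to 0.0599). Cyp2j13 did not pass there without severe replicate 1, 2, 4 or 5, with adjusted p-values of 0.0635, 0.0623, 0.050 and 0.0699. Cyp2e1 passed without severe replicate 6 (-1.39, adjusted p = 0.0110) and Cyp2j9 without control replicate 5 (-0.51, adjusted p = 0.0326). Without severe replicates 4 and 5 together, the severe count was 1, Ephx2 (-1.20, adjusted p = 0.0412), and the change of Cyp2j11 was -0.48 in place of -1.12. Leaving out moderate replicate 2, which lay within the control range, brought Cyp2j13 in moderate kidneys to -3.59 (adjusted p = 0.0492), and without severe replicate 5 Cyp2j5 passed there (adjusted p = 0.0194).

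**Figure D4:**
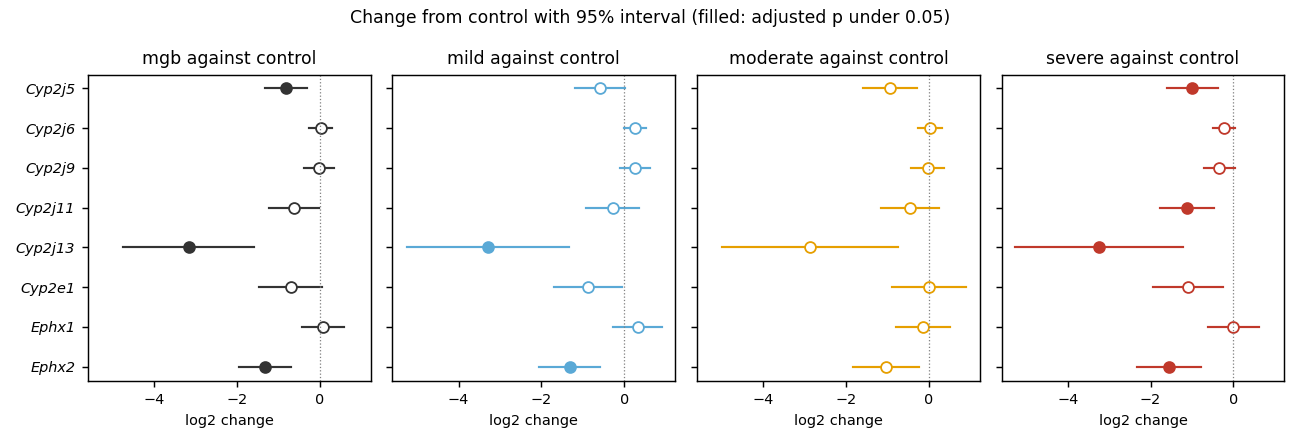
Log2 change from control with its 95% interval for each of the 8 genes, in all mgb-/- kidneys and in each grade, with filled dots at adjusted p under 0.05. The changes of Cyp2j13 and Ephx2 lie between -3.29 and -2.87 and between -1.56 and -1.03 in the 3 grades, while Cyp2e1 lies at -0.87, 0.01 and -1.09 in mild, moderate and severe kidneys.

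No difference between grades passed for any of the 8 genes. Between severe and mild kidneys 0.587% of all genes passed, between moderate and mild 0%, and between severe and moderate 0.00715%. The nearest was Cyp2j6, whose mean was 0.44 in severe and 0.91 in mild kidneys (difference -0.48, 95% interval -0.74 to -0.22, adjusted p = 0.105), with all 6 severe kidneys below the mild mean. Cyp2j9 followed with 0.68 and 1.27 (difference -0.60, 95% interval -0.96 to -0.23, adjusted p = 0.167), and again all 6 severe kidneys lay below the mild mean. Without severe replicate 4, Cyp2j6 reached -0.57 with an adjusted p of 0.0265. For Cyp2j13 the same contrast was 0.03 with a 95% interval from -1.92 to 1.99, which does not bound the difference closely. At an unadjusted p under 0.05, where 11.1% of all genes lay, 3 of the 8 genes were below the mild level in severe kidneys, Cyp2j6, Cyp2j9 and Cyp2j11. Between moderate and mild kidneys (6.67% of all genes at that threshold) 1 gene had such an unadjusted p, Cyp2e1, which was 0.88 higher in moderate kidneys (adjusted p = 0.739). Between severe and moderate kidneys (10.4%) it was again Cyp2e1, at -1.10 (95% interval -1.99 to -0.21, adjusted p = 0.396).

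A slope over the order mild, moderate, severe gave the same picture. None of the 8 genes passed, as against 0.232% of all genes. The slope was -0.24 per grade for Cyp2j6 (adjusted p = 0.229), -0.30 for Cyp2j9 (adjusted p = 0.137) and 0.03 for Cyp2j13 (95% interval -1.08 to 1.13). Cyp2j6, Cyp2j9 and Cyp2j11 had an unadjusted p under 0.05, where 8.64% of all genes lay.

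Over the 18 mgb-/- kidneys, 12 of the 28 pairs among the 8 genes were correlated at an adjusted p under 0.05 (two-sided permutation test of Pearson's r, 100000 resamples, adjusted over the 28 pairs). All 12 were positive. The closest pair was Cyp2j13 and Ephx2, with r = 0.87 and rho = 0.84 (permutation p = 1e-05 and 2e-05, adjusted p = 1.4e-04 and 5.6e-04). For r this is the smallest p that 100000 resamples can give. It was followed by Cyp2e1 and Ephx2, with r = 0.86 and rho = 0.73 (permutation p = 1e-05 and 9.4e-04, adjusted p = 1.4e-04 and 0.00526), and by Cyp2j5 and Cyp2j11, with r = 0.81 and rho = 0.78 (permutation p = 0.00165 and 3.7e-04, adjusted p = 0.00770 and 0.00345). The kidneys of these pairs share their array, its scaling and its tissue composition. The share of all pairs of genes correlated in these kidneys was not computed. Neither this count nor the counts of pairs given below therefore set the 8 genes apart from other genes.

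The Cyp2j13 and Ephx2 relation stayed positive with the grades removed and on each slide. Centred on the grade means r was 0.89, and within slides 1, 2 and 3, of 6 mgb-/- kidneys each, it was 0.77, 0.93 and 0.91. Without the 2 kidneys farthest from the median of Cyp2j13 it was 0.79. For Cyp2e1 and Ephx2 the same values were 0.87 centred, 0.77, 0.96 and 0.92 within slides, and 0.73 without the 2 kidneys farthest in Cyp2e1. For Cyp2j13 and Cyp2e1, r was 0.71 and rho 0.62 (permutation p = 7.3e-04 and 0.00771, adjusted p = 0.00409 and 0.0354), with 0.60, 0.94 and 0.80 within slides and 0.64 without the 2 farthest. Cyp2j5 and Cyp2j11 had 0.69, 0.98 and 0.72 within slides and 0.62 without the 2 kidneys farthest in Cyp2j5. Tested within single slides, no pair passed on slides 1 and 3, and 9 of the 28 pairs passed on slide 2.

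Other pairs were less steady. Cyp2j9 and Cyp2j11 had r = 0.77 over 18 kidneys (permutation p = 2.1e-04, adjusted p = 0.00196; rho = 0.60, permutation p = 0.00977, adjusted p = 0.0354) and 0.43 (permutation p = 0.0964) without the 2 kidneys farthest in Cyp2j9, where it no longer passed. Its r was 0.68 centred on the grade means (adjusted p = 0.00722) and 0.63, 0.85 and 0.77 within slides. With the 2 farthest kidneys left out of each pair, 7 pairs were past the threshold. Without the 7 kidneys with adrenal markers 10 of 28 pairs passed, all positive, with r = 0.91 for Cyp2j13 and Ephx2, 0.92 for Cyp2e1 and Ephx2 and 0.84 for Cyp2j9 and Cyp2j11 (n = 11, permutation test, adjusted p = 0.00112, 0.00392 and 0.00392). Without severe replicates 4 and 5 there were 11, 8 of them positive, with r = 0.91, 0.77 and 0.43 for the same pairs (n = 16, permutation test, adjusted p = 2.8e-04, 0.00597 and 0.180). The 3 negative pairs were Ephx1 with Cyp2j13, Cyp2e1 and Ephx2, with r = -0.62, -0.69 and -0.76 (permutation test, adjusted p = 0.0294, 0.0173 and 0.00597). Cyp2j6 showed no relation to Cyp2j13 that passed, with r = -0.01 and rho = 0.01 (permutation p = 0.972 and 0.967). Ephx1 had no positive relation that passed with any other gene, and its rank correlations with Cyp2e1 and Ephx2 were -0.59 and -0.59 (permutation p = 0.0108 and 0.0120, adjusted p = 0.0354 for both), while Pearson's r was -0.32 and -0.36 (adjusted p = 0.296 and 0.240).

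**Figure D5:**
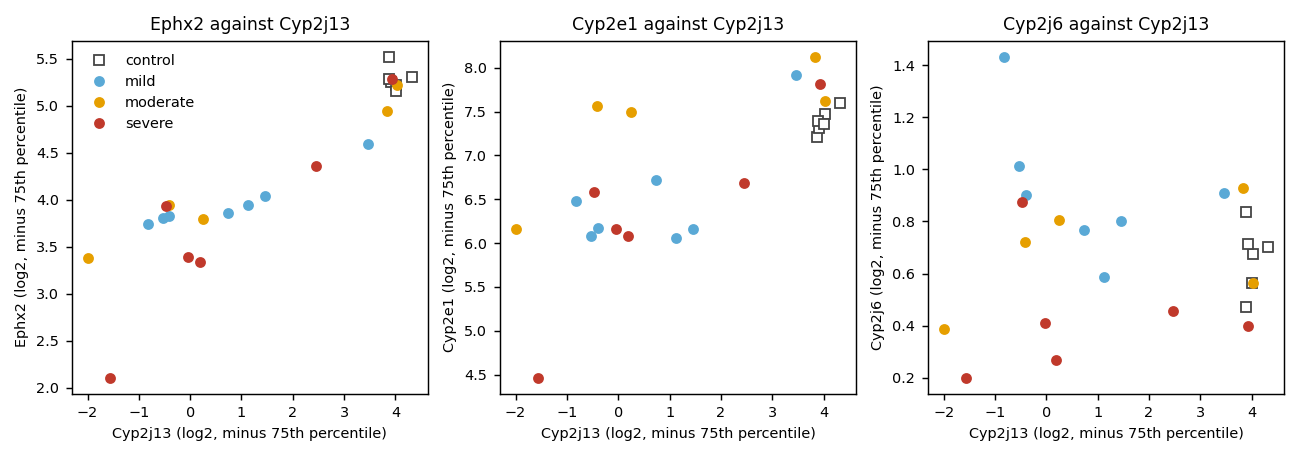
Levels of Ephx2, Cyp2e1 and Cyp2j6 (vertical axes) against Cyp2j13 (horizontal axis) in each kidney, as log2 signal minus the array's 75th percentile, with open squares for controls and dots for mgb-/- kidneys by grade. Ephx2 rises with Cyp2j13 over the mgb-/- kidneys (r = 0.87), Cyp2e1 does so less closely (r = 0.71), and Cyp2j6 does not (r = -0.01).

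Among 20503 genes well above background on all arrays, the 5 whose level was most like that of Cyp2j13 over the 18 mgb-/- kidneys were Ugt2b38, Ugt2b37, Ugt2b36, BC048538 and Ces1f, with r from 0.96 to 0.97. Ugt2b genes encode glucuronosyltransferases, and Ces1f is a carboxylesterase. All 5 were lower in mgb-/- kidneys, from -4.02 to -2.82 (adjusted p from 0.00716 to 0.0142). Ephx2 was most like Erich4 (r = 0.98), Fbxo7, a transcript without a symbol, Osbp2 and Aspdh, all with r of at least 0.97. Cyp2j5 was most like Mep1a (r = 0.98), St8sia1, Mep1b, AK083183 and Rfng. Mep1a and Mep1b encode the 2 meprin subunits of the proximal tubule brush border, and they differed by -0.37 (adjusted p = 0.231) and -0.74 (adjusted p = 0.103).

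For Cyp2e1 the 5 genes were Gfra1 (r = 0.96), Acot12, Ugt3a1, Gclc and Acox3. For Cyp2j11 they were Chchd3 (r = 0.95), Nit2, Macrod1, AK036683 and Iqcc. Their rho with Cyp2j11 was 0.94, 0.85, 0.74, 0.74 and 0.77 in this order. Severe replicates 4 and 5, far below the other kidneys for Cyp2j11, were not left out of this search. The likeness was lower for Cyp2j6, led by Podxl, the podocyte sialomucin (r = 0.89), and for Cyp2j9, led by a transcript without a symbol (r = 0.86). Ephx1 was led by Aldoc, an aldolase (r = 0.94). Podxl and Aldoc, like Cyp2j6 and Ephx1, did not pass between mgb-/- and control kidneys (0.04, adjusted p = 0.921, and 0.46, adjusted p = 0.389).

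The other P450s and hydrolases of epoxide and fatty acid metabolism did not follow 1 direction. Of 12 Cyp2c genes tested, the second family of epoxygenases, 1 was higher and none lower. It was Cyp2c23, a kidney epoxygenase, at 0.74 (SE 0.23, adjusted p = 0.0358). Of 12 Cyp4 genes, which encode fatty acid omega-hydroxylases, 2 were higher and 3 lower. Cyp4a14 rose by 2.79 (SE 0.44, adjusted p = 7.55e-04), while Cyp4a12a and Cyp4a12b, near-identical genes whose probes may read both, were -3.51 and -3.48 (adjusted p = 0.0107 and 0.0114), and Cyp4b1 was -2.07 (adjusted p = 0.00968). Cyp4a12a and Cyp4a12b are on the list of male-biased genes that the study drew from these same kidneys, so their calls are not independent evidence. Of 9 genes of other epoxide hydrolases and of epoxide conjugation, 3 were higher and none lower, namely Gsta4, a glutathione transferase (1.25, adjusted p = 0.00146), Ephx4 (0.95, adjusted p = 0.0340) and Mgst1 (0.83, adjusted p = 0.0357). Ephx2 was thus lower where these 3 were higher.

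The P450s need electrons from a reductase. Of 7 genes for these electron donors and for heme handling, 3 were lower and none higher, with a median change of -0.49. Por, the reductase that serves all microsomal P450s, was -0.71 (SE 0.17, adjusted p = 0.00899), Cyb5r1 -0.58 (adjusted p = 0.00146) and Cyb5r3 -0.52 (adjusted p = 0.0260). Of 15 genes that release arachidonate or return it to lipids, Acsl4 was higher by 0.60 (adjusted p = 0.0335), Pla2g6 was -0.60 (adjusted p = 0.0170) and 13 did not pass. Cyp2j13, Cyp2j5 and Por were thus all lower.

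Of 16 transcription factors and receptors listed as regulators of such genes, 3 were higher. Cebpd and Cebpb, factors of the acute phase response, were higher by 1.97 and 1.58 (adjusted p = 1.88e-05 and 7.41e-05), and Nr1i2, the pregnane X receptor, by 0.57 (adjusted p = 0.0495). Of 11 genes with higher expression in male kidney that the study itself drew from these samples, all 11 were lower, with a median of -3.46, so that this count is not independent evidence. Cyp2j13 itself is on the study's list and was left out of these 11. Ugt2b37 and Ces1f, among the 5 genes most like Cyp2j13, therefore come from the same list as Cyp2j13. Of 6 female-biased genes chosen in the same way, all 6 were higher. Of 8 other genes known to respond to androgen in the kidney, Hsd17b11 and Gusb were lower (-2.08 and -0.58, adjusted p = 0.00250 and 0.0265), Aoc1 was higher (1.46, adjusted p = 0.0407) and 5 did not pass.

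Without the 7 kidneys with adrenal markers, fewer of the listed genes passed. Cyp4a14 (2.53, adjusted p = 0.0256), Gsta4 (1.33, adjusted p = 0.0178), Por (-0.75, adjusted p = 0.0472), Cyb5r1 (-0.53, adjusted p = 0.0272), Cebpd (1.96, adjusted p = 5.58e-04), Cebpb (1.42, adjusted p = 0.00255) and Hsd17b11 (-1.93, adjusted p = 0.0325) still passed in that comparison. Cyp2c23 (0.67, adjusted p = 0.163), Cyp4a12a (-2.95, adjusted p = 0.0880), Cyp4a12b (-2.96, adjusted p = 0.0930), Cyp4b1 (-1.93, adjusted p = 0.0716), Ephx4 (0.88, adjusted p = 0.124), Mgst1 (0.61, adjusted p = 0.182), Cyb5r3 (-0.49, adjusted p = 0.127), Acsl4 (0.47, adjusted p = 0.171), Pla2g6 (-0.56, adjusted p = 0.104), Nr1i2 (0.50, adjusted p = 0.216), Gusb (-0.50, adjusted p = 0.167) and Aoc1 (1.44, adjusted p = 0.113) did not, and each had the sign it had with all kidneys. Of the 11 male-biased genes 1 was lower, with a median of -2.95, and of the 6 female-biased genes 2 were higher, with a median of 1.99. None of the 24 proximal tubule markers passed, while 3 of 8 urothelial markers and 1 of 8 tubular injury genes were higher.

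Markers of other cell types were read beside the 8 genes. Hepatocytes, in which Cyp2e1, Ephx1 and Ephx2 are abundant, showed no marker of 9 that passed, and their summed level was 5.83 to 17.6 in controls and 6.53 to 30.2 in mgb-/- kidneys. Of 8 urothelial markers 3 were higher, Krt19, Krt14 and Upk1b, and their summed level was 6.92 to 21 in controls and 77.7 to 261 in severe kidneys. Of 8 tubular injury genes 2 were higher, Krt20 and Spp1. Of the markers of podocytes (5), leukocytes (6), adrenal gland (5) and adipocytes (4) none passed, and of those of the thick limb and distal tubule (8) and the collecting duct (7), Cldn16 and Aqp2 were higher. The part of these cells in the changes of Cyp2j13, Ephx2 and Cyp2j5 was not tested, beyond the scaling by proximal tubule markers given above.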

How the data were processed

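The authors hybridized labelled RNA of 24 kidneys to Agilent arrays and deposited the output of the scanner software of each array (Agilent Feature Extraction 10.10, per the labels), whose processed signal is an intensity with background and spatial trend removed and no scaling between arrays. The authors also deposited a table of intensity values normalized between arrays by a method not given in the sources used here, which served as an alternative.

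From the deposited intensity values, log2 of the processed signal minus the array's 75th percentile was taken, outlier spots were dropped and replicate spots averaged per probe. A probe entered the tests if 5 or more arrays read it well above background (38838 probes, 27959 genes by brightest probe). Where an outlier spot left a value missing (325 genes), the fit used the other kidneys. Groups were compared with limma 3.58.1 in R 4.3.3 over all groups together, with Benjamini-Hochberg adjustment over all genes and a threshold of 0.05. The mgb-/- contrast fitted 1 mean to the 18 mgb-/- kidneys. The slope on grade was fitted to the mgb-/- kidneys. Correlations were computed in Python 3.11.15. The procedure was tested on simulated data. The precision is limited by the number of arrays.

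The 8 genes and the 20 gene lists were chosen with earlier results of these data known. Besides the 8 genes, up to 4 genes with the lowest adjusted p under 0.05 in mgb-/- against control kidneys are named of each list (lists of cell types in counts, with those that passed), and for each of the 8 genes the 5 genes with the highest Pearson r over mgb-/- kidneys. Of the cluster's neighbours all tested genes up to 5 on each side were looked at. Alternatives covered the scaling (quantile, array median, normexp with an offset of 50, the authors' table), the filter, the choice of probe, the slide or replicate number as a block, array weights, the groups in the fit, the threshold, and leaving out each kidney. Scaling by proximal tubule markers and leaving out kidneys with adrenal markers or severe replicates 4 and 5 were chosen after seeing the data. Array annotation refers to older gene models, and the promoter sequences come from RefSeq by gene symbol. Some results for listed regulators are not reported here.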

Additional observations from a re-analysis of the deposited data

Results flagged for a closer look

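Of 32 combinations of gene and group, 7 held a kidney that stood apart from the rest of its group by Dixon's criterion, which chance meets in about 1 of 20 groups. Mild replicate 4 stood high for Cyp2e1 at 7.92 (next kidney 6.72) and for Ephx2 at 4.60 (next 4.04), the same kidney that had the highest Cyp2j13 of its grade. Its summed adrenal markers, 248, were the highest of all kidneys. Severe replicate 5 stood low for Cyp2j5 at -1.84 (next -0.21), and it also had the lowest proximal tubule markers. Severe replicate 4 stood low for Ephx1 at 2.93 (next 4.57). Its array had the lowest share of probes above background, 55.6%, and the most outlier spots, 660. Among controls, replicate 3 stood high for Cyp2j13 at 4.32 (next 4.02), replicate 5 low for Cyp2j9 at 0.16 (next 1.08) and replicate 4 low for Ephx1 at 4.00 (next 4.59). None of the 8 genes differed between grades past the threshold.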

How the results depend on the processing

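Cyp2j13 and Ephx2 kept their direction and an adjusted p under 0.05 against control in 36 of 37 alternatives over all mgb-/- kidneys, and Cyp2j5 in 30 of 37; the exception for the first 2 was the fit without the kidneys with adrenal markers. The change of Cyp2j13 ran from -3.35 to -1.05, the latter in the authors' table, where another of its probes was the brightest, and that of Ephx2 from -1.47 to -1.01. Cyp2j6, Cyp2j9 and Ephx1 never passed there and changed sign in 5, 13 and 3 alternatives. Scaling by the array median moved the median of all genes to -0.15 and the split of all calls to 601 higher and 2802 lower, and scaling by the proximal tubule markers moved them to 0.32 and to 700 and 266.

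The count of the 8 genes called in mgb-/- kidneys (3) was 5 with array weights and 0 without the kidneys with adrenal markers, and 2 to 3 with 1 kidney left out. Array weights raised the calls over all 27959 genes as well, to 3553 higher and 5080 lower, against 1494 and 2238 in the main fit. For the grades, the calls over all genes with array weights are not given here. In mild kidneys (2) it was 1 in the authors' table, without a filter on dim probes, with the slide as a block and with proximal tubule scaling, 0 without the adrenal kidneys, 4 with array weights and with the compared groups alone, and 0 to 2 with 1 kidney left out. Without the adrenal kidneys, mild replicates 1 and 3 alone were left of that grade. In moderate kidneys (0) it was 4 with array weights, 1 without severe replicates 4 and 5 and 0 to 1 with 1 kidney left out (1 without moderate replicate 2, Cyp2j13, and 1 without severe replicate 5, Cyp2j5, adjusted p = 0.0194). In severe kidneys (4) it was 2 with the compared groups alone, with proximal tubule scaling and without the adrenal kidneys, 1 without severe replicates 4 and 5, and 2 to 5 with 1 kidney left out. No severe or control kidney was among the adrenal kidneys. Leaving those out therefore changed the estimate of the spread shared by the groups and not the severe or control values. Between severe and mild kidneys (0) it was 1 with array weights and 0 to 1 with 1 kidney left out. The cause was not tested. With the replicate number as a block the counts were 0 in mild and 1 in severe kidneys, but the numbers are not known to pair the kidneys: deviations of same-numbered kidneys correlated from -0.55 to 0.65, and 6 of 24 kidneys correlated best with a kidney of their own number. With that block Cyp2j5 had an adjusted p of 0.0597 over all mgb-/- kidneys. Of the 28 pairs of genes (12 correlated), 7 passed without the 2 farthest kidneys, and 0, 9 and 0 within slides 1, 2 and 3, where 6 kidneys are few. Without the adrenal kidneys 10 pairs passed, and without severe replicates 4 and 5 it was 11.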

Other observations

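Over the 18 mgb-/- kidneys, the 4 kidneys with the highest Cyp2j13 also had the highest levels of Acsm3, a gene of the study's male-biased list, which also holds Cyp2j13, at 4.70 in mild replicate 4, 6.80 and 4.92 in moderate replicates 2 and 5 and 6.77 in severe replicate 6, against 6.05 to 7.00 in controls. Slco1a1, an organic anion transporter of the same list, stood at 0.98, 3.21, 1.24 and 3.13 in these kidneys and below 0 in the other 14. Slc34a1, the phosphate transporter of the proximal tubule, was between 7.87 and 8.30 in the 4 kidneys and between 7.93 and 8.31 in controls. In the other 14 it ran from 5.86 to 7.96, so that the ranges overlapped.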
